A study of Mus musculus with 20 samples.

Results

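The 12 testis libraries of vincristine-treated mice were ordered by a score of late spermatid transcripts, out of 20 libraries in the series. The score was the mean log2(CPM + 1) of Prm1, Prm2, Tnp1 and Tnp2, where CPM is the usual scaling of a gene's count to its library's total. The order was chosen by the CPM values of these 4 score genes, so their own values are a description and they were left out of every fit across genes and every count of genes. The mice were male and of the NSG strain (NOD scid gamma), which lacks the lymphocytes that would reject human cells, and were 6 weeks old when housed per the labels. NC held normal controls and ALL held mice with B-ALL engraftment, a human B-cell acute lymphoblastic leukaemia grown as a patient-derived xenograft from 400000 cells injected into the tail vein. The labels of VCR name vincristine alone, although the design text speaks of PDX mice for every group. In Low-VCR and High-VCR they name vincristine together with low or high B-ALL infiltration of the blood. The dose was 0.5 mg/kg of vincristine sulfate into the peritoneum weekly for 3 weeks from day 69, and the control groups received saline. Each of the 5 groups had 4 samples; the labels do not say whether each came from a separate mouse or whether 1 patient's cells were used throughout, so the p-values below describe sample-to-sample spread, which may be technical.

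Spermatogenesis runs from dividing spermatogonia through meiotic spermatocytes to haploid round spermatids, which then elongate and condense their chromatin. During condensation histones give way to the transition proteins encoded by Tnp1 and Tnp2, and these give way to the protamines encoded by Prm1 and Prm2. The 4 transcripts are made in round spermatids and stored for later translation, so they mark the last steps of sperm formation. Vincristine binds tubulin and blocks the assembly of microtubules, including those of the mitotic and meiotic spindles. In whole testis, fewer cells of a type and less RNA per cell cannot be told apart.

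The promoters of the score genes are shown because these genes set the order and because short CREM-type elements are known from this gene class. Each sequence is the 250 bases before the RefSeq transcription start (build GRCm38.p6, minus strand), read 5′ to 3′, while the counts were made on GRCm39. Capitals mark a match to the CRE-like motif TGACNTCA on either strand. The Prm1 window lies at chr16:10796824-10797073 and its match starts 64 bases before the start of transcription. The Tnp1 window lies at chr1:73015900-73016149 and its match starts 94 bases before it, on the opposite strand. The windows of Prm2 and Tnp2 held no such match.
Prm1: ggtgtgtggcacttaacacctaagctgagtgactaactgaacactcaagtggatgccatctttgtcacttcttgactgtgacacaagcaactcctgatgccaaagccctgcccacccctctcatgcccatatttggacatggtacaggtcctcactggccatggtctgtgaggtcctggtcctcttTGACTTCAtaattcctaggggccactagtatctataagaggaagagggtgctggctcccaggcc
Tnp1: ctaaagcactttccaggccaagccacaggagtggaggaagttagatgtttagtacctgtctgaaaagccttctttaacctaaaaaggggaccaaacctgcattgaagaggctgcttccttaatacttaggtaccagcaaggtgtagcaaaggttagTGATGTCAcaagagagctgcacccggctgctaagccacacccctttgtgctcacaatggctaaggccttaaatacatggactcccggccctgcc

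All 4 score genes were lowest in VCR 1 and next lowest in VCR 2. Prm1 was at 35.5 CPM in VCR 1, 187.8 in VCR 2, and between 633.8 and 1741 in the other 10 treated libraries. Prm2 was at 57.6, 868.7, and 1052 to 3069 in the same order. Tnp1 was at 36.3 and 243.2, with 546.2 to 1363 elsewhere, and Tnp2 at 85.8 and 461.9, with 1547 to 4035 elsewhere. In untreated libraries the ranges were 1228 to 2273 for Prm1, 2951 to 3818 for Prm2, 723.1 to 2254 for Tnp1 and 3360 to 4838 for Tnp2. The treated and untreated values therefore overlapped for each of these genes. For Prm1, Prm2 and Tnp2 this was through the upper end of the treated order. For Tnp1 it also took in libraries of middle score, such as Low-VCR 3 at 814.9 CPM.

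**Figure D1:**
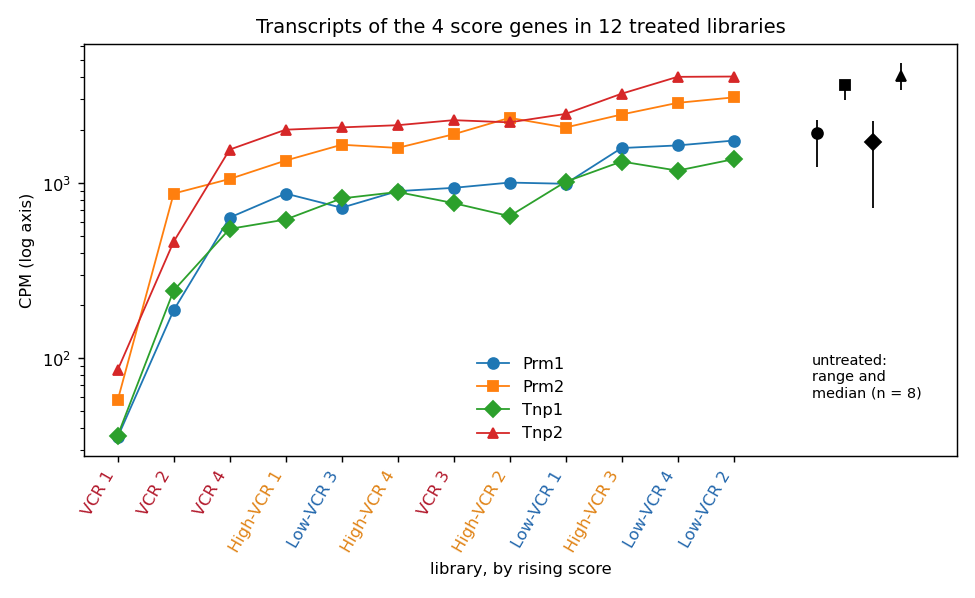
CPM of Prm1, Prm2, Tnp1 and Tnp2 (log axis) in the 12 treated libraries, ordered by rising score, with the range and median of the 8 untreated libraries at the right. VCR 1 and VCR 2 lie below all others for each gene, and the other 10 form a shallow slope.

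The order was not an even gradient. VCR 1 had a score of 5.68, which was 48.9-fold below the untreated mean of 11.29, and VCR 2 had 8.53, 6.80-fold below it. VCR 4 followed at 9.76, then High-VCR 1 at 10.10, Low-VCR 3 at 10.22, High-VCR 4 at 10.32, VCR 3 at 10.37 and High-VCR 2 at 10.40. The upper end held Low-VCR 1 at 10.56, High-VCR 3 at 10.98, Low-VCR 4 at 11.08 and Low-VCR 2 at 11.19. The step from VCR 1 to VCR 2 was 2.85 and the next was 1.23, whereas no later step was above 0.42. Untreated libraries lay between 10.77 and 11.60, and the 3 highest treated libraries lay inside that range. The main counts, the lists and most named genes below are therefore also given without VCR 1 or without VCR 1 and VCR 2, the libraries farthest from the median score of 10.35.

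The 3 treated groups overlapped in score. VCR had a mean score of 8.59 ± 2.08 (SD, n = 4), Low-VCR 10.76 ± 0.45 and High-VCR 10.45 ± 0.37. The mean of Low-VCR was above that of VCR by 2.17 and the mean of High-VCR by 1.87, and High-VCR minus Low-VCR was -0.31. Without VCR 1 the first differences were 1.21 and 0.90, and without VCR 3, which overlapped both engrafted groups, 2.77 and 2.46. The score set the order, so these values are given with no test. The VCR libraries also carry library names in a range of their own (A-1 to A-8, shared with NC), so drug without engraftment and name range cannot be told apart.

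Measures of the whole library moved with the score. Total counts were 9425158 to 16357287 per library over the series. Ribosomal protein transcripts made up 1.38% to 2.42% of counts in treated libraries and ran against the score (r = -0.909, rho = -0.79, n = 12; permutation p = 0.00028 and 0.00304, adjusted over 5 measures 0.0014 and 0.0152). Mitochondrially encoded transcripts made up 4.69% to 11.9%, with VCR 1 highest, against 1.78% to 2.60% in untreated libraries (r = -0.70, permutation p = 0.0215, adjusted 0.0215; rho = -0.36, permutation p = 0.247, adjusted 0.247). The number of genes detected, 17707 to 18855, and total counts had r of 0.83 and 0.65 (permutation p = 0.00714 and 0.0165, adjusted 0.0119 and 0.0206), with rho of 0.47 and 0.46 (permutation p = 0.128 and 0.134, adjusted 0.168 for both). The first principal component of the other genes held 65.3% of the variance among treated libraries. Its r was 0.90 and its rho 0.71 (permutation p = 0.00074 and 0.0122, adjusted 0.00185 and 0.0304). VCR 1 stood at -149 on this component and the other libraries at -50.8 to 59.3. The component was computed once over 12 libraries and not again when libraries were left out. Without VCR 1 and VCR 2, r was -0.61 for the ribosomal share, -0.04 for the mitochondrial share, 0.15 for genes detected, 0.18 for total counts and 0.50 for the first component, and none passed over 10 libraries. The ribosomal share and the first component still passed without VCR 1 alone (r = -0.73 and 0.70, permutation adjusted p = 0.0263 for both), and total counts, genes detected and the mitochondrial share did not. The relations of those 3 measures rest on the lowest libraries. Within groups, with values centred on group means and permuted inside groups, none of the 5 measures passed. The permutation adjusted p was 0.0658 for the ribosomal share and the first component (r = -0.84 and 0.90). It was 0.133 for genes detected and the mitochondrial share (r = 0.71 and -0.65), and 0.308 for total counts (r = 0.47). The part of these measures in the gene results was not tested.

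How many other genes tracked the score depended on its lower end. For each gene a slope was fitted, the log2 change in its normalised count per unit of score, so that a slope of 1 means a change in proportion to the score genes. Of 16189 genes tested, 6376 (39.4%) passed edgeR's quasi-likelihood test (Benjamini-Hochberg, threshold 0.05), of which 3534 (21.8%) were higher and 2842 (17.6%) lower at a higher score. Without VCR 1 the count was 935 (5.7%), 668 (4.07%) higher and 267 (1.63%) lower. Without VCR 1 and VCR 2 it was 204 (1.23%), 196 (1.18%) higher and 8 (0.0481%) lower, and all 196 were among the 3534. With the ranks of the score in place of its values, 3837 passed, 1314 higher and 2523 lower. With the range of library-name numbers as a term, 2101 passed, 2004 higher and 97 lower; within a single range there are 4 libraries, too few for a correlation. Log2(CPM + 1) had a Pearson r above 0.8 with the score for 1889 genes over 12 libraries and for 375 over the other 10.

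Transcripts of elongating and condensing spermatids had the steepest median slope of the germ cell lists over 12 libraries. Of 28 tested members of that list, 27 passed over 12 libraries (median slope 0.99, against -0.01 over all genes). Without VCR 1 21 passed (0.82), and without both low libraries 8 (0.96, against -0.05 over all genes). Of all genes, 21.8%, 4.07% and 1.18% were called higher in the same fits. With group means in the fit 26 passed (0.94), 4 without VCR 1 (0.59) and 0 without both (0.65; edgeR called 0 of 16648 genes there, with 987 at an unadjusted p under 0.05). Odf1, an outer dense fibre protein of the sperm tail, was at 29.6 CPM in VCR 1, 464.6 in VCR 2, 1012 in VCR 3 and 618.8 in VCR 4. It was at 1555, 2148, 1420 and 1985 in Low-VCR 1 to 4 and at 900.7, 1498, 1763 and 1201 in High-VCR 1 to 4, with 2052 to 2538 in untreated libraries. Only Low-VCR 2 reached the untreated range, and the order of the libraries was close to that of the score. Its slope was 1.13 ± 0.088 (SE, n = 12; edgeR adjusted p = 1.42e-06) and 1.17 ± 0.22 in the 10 libraries (edgeR adjusted p = 0.0319).

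Other members of that list also ran along the order. Akap4, the main anchoring protein of the fibrous sheath, ran from 44.8 CPM in VCR 1 to 2547 in Low-VCR 4, with a slope of 1.06 ± 0.18 in the 10 libraries (edgeR adjusted p = 0.0216). Cabs1, a calcium-binding protein of late spermatids, ran from 14.9 CPM in VCR 1 through 182.1 in VCR 2 to 942 in Low-VCR 2, against 669.3 to 822.4 in untreated libraries. Its slope was 1.08 ± 0.062 over 12 libraries (edgeR adjusted p = 1.3e-07) and 1.20 ± 0.16 over 10 (edgeR adjusted p = 0.0059). H1f7, a testis-specific linker histone, had slopes of 1.04 and 0.99 in the same fits and passed in both. Smcp, a mitochondrial capsule protein of sperm, passed over 12 libraries and not over 10 (slope 1.19 ± 0.26, edgeR adjusted p = 0.0562). Akap14 and Tekt4 were the 2 members that did not pass within groups.

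Round spermatid markers did not keep that order once the 2 low libraries were set aside. Over 12 libraries 20 of 28 list members passed (median slope 0.90), without VCR 1 7 (0.58), and in the 10 libraries 4 (0.32). Of all genes, 21.8%, 4.07% and 1.18% were called higher in the same fits, so the calls fell for genes at large too. Acrv1, an acrosomal vesicle protein, was at 0.56 CPM in VCR 1, 36.3 in VCR 2, 26.6 in VCR 3 and 21.5 in VCR 4. In High-VCR 1 to 4 it was at 23.7, 14.6, 37.8 and 12.5. In Low-VCR 1 and 3 it stood at 188.5 and 223.4, just below the untreated 223.7 to 281, whereas in Low-VCR 2 and 4 it was at 61.7 and 29.8. Low-VCR 2 and 4 had the highest scores of all treated libraries, and Low-VCR 3 lay in the lower part of the order. The slope of Acrv1 was -0.05 ± 1.25 in the 10 libraries (edgeR adjusted p = 0.996), so its interval is wide.

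The same libraries stood out for other acrosomal and kinase genes. Spaca1, an acrosome membrane protein, was at 116.2 and 124.8 CPM in Low-VCR 1 and 3, at 33.9 and 15.5 in Low-VCR 2 and 4, and at 2.63 to 25.8 in the other treated libraries. Tssk4, a testis-specific kinase named in the series title, was at 58.2 and 69.4 CPM in Low-VCR 1 and 3, 24 and 9.5 in Low-VCR 2 and 4, at most 11.2 elsewhere among treated libraries and at 0 in VCR 1, against 69.2 to 105.1 in untreated libraries. Its slope was 1.19 ± 0.48 over 12 libraries (edgeR adjusted p = 0.0636) and 0.71 ± 0.38 within groups (edgeR adjusted p = 0.207; -0.14 without VCR 1, and 1.12 with DESeq2, adjusted p = 0.016). As medians of the members, the round spermatid list stood at 64.6% and 68.4% of its untreated level in Low-VCR 1 and 3, 49.7% and 43.1% in Low-VCR 2 and 4, and 1.57% in VCR 1. The elongating list stood at 64.3% and 61.5%, 74.8% and 70.4%, and 1.60% in those libraries. These libraries were singled out after their values were seen, they lie in both name ranges of the engrafted groups, and no test was made between them.

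**Figure D2:**
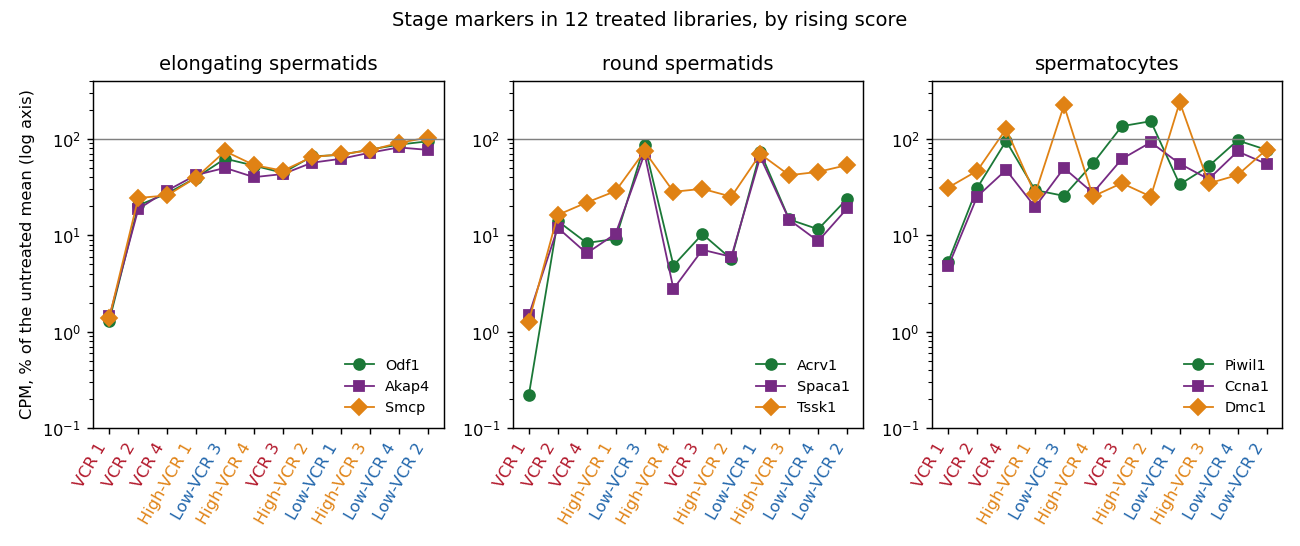
CPM of stage markers as a percentage of the untreated mean (log axis) in the 12 treated libraries by rising score, with a horizontal line at the untreated mean. The elongating markers Odf1, Akap4 and Smcp rise along the order, whereas Acrv1 peaks in Low-VCR 1 and Low-VCR 3 at 73.1% and 86.6% of the untreated mean.

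A smaller set of round spermatid genes did follow the score in the 10 libraries. Hspa1l, a testis-specific member of the HSP70 family, ran from 24.1 CPM in VCR 1 and 193.8 in VCR 2 to 920.4 in Low-VCR 2, against 939 to 1140 in untreated libraries. Its slope was 0.98 ± 0.049 over 12 libraries and 1.10 ± 0.14 over 10 (edgeR adjusted p = 7.0e-08 and 0.0059). Txndc2, a spermatid thioredoxin, had 0.74 ± 0.054 and 1.03 ± 0.16 (edgeR adjusted p = 8.0e-07 and 0.0112). Actrt1, an actin-related protein of the sperm head, and Gsg1, a germ cell protein, were the other 2 members past the threshold in the 10 libraries.

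**Figure D3:**
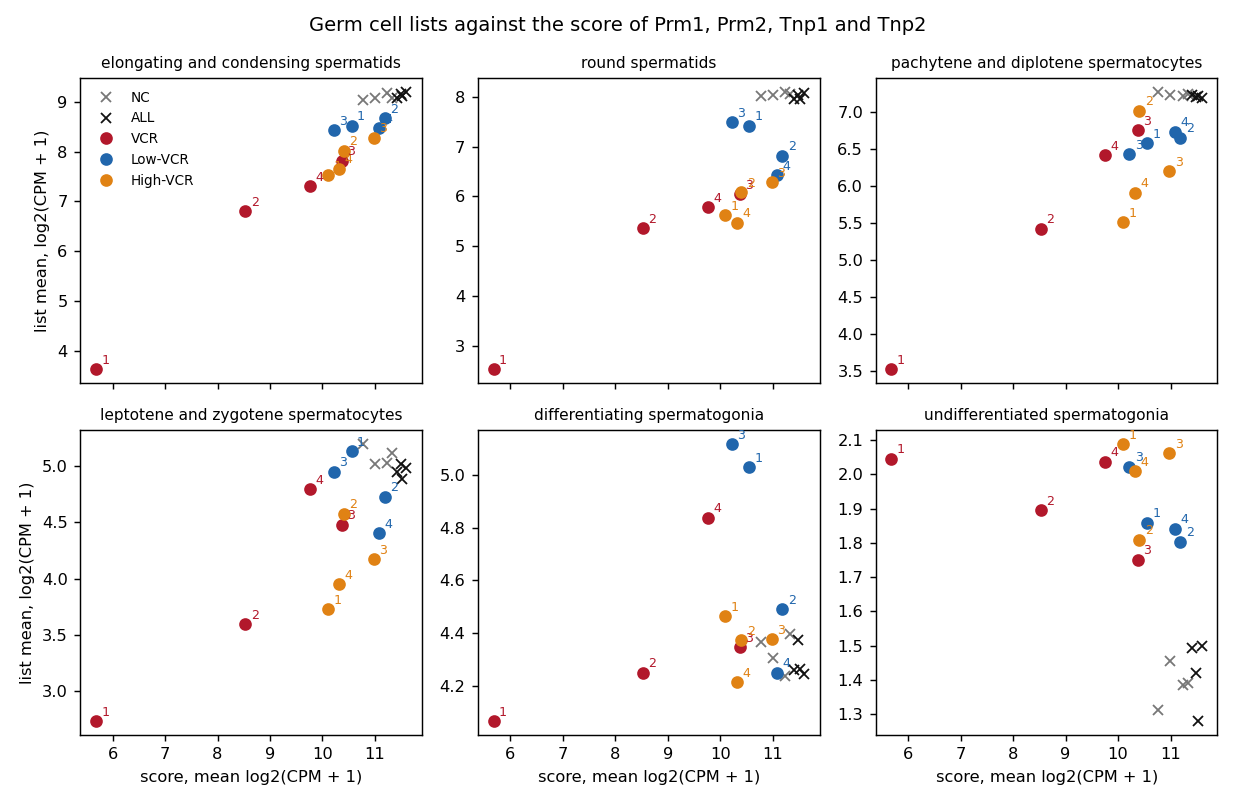
Mean log2(CPM + 1) of each germ cell list against the score, treated libraries as circles with their replicate number and untreated as crosses; each panel has its own vertical range. The spermatid lists fall steeply at VCR 1 and VCR 2, and the undifferentiated spermatogonial list lies above the untreated libraries in each treated one.

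The spermatocyte lists had no called member in the 10 libraries. In the pachytene and diplotene list 23 of 26 passed over 12 libraries (median slope 0.74), 1 without VCR 1 (0.59) and 0 without both (0.31; 204 of 16648 genes passed in that edgeR fit, and 1567 had an unadjusted p under 0.05). In the leptotene and zygotene list the counts were 17 of 29 (0.54), 0 and 0 (0.01). Of all genes, 21.8%, 4.07% and 1.18% were called higher in these fits, so few calls without the low libraries are not particular to these lists. Pgk2, the glycolytic kinase that germ cells use after the X chromosome is silenced, ran from 22.5 CPM in VCR 1 to 1002 in Low-VCR 2 and had a slope of 0.98 ± 0.10 within groups (edgeR adjusted p = 0.00011; 0.67 without VCR 1, 0.123). Sox30, a transcription factor of the step from meiosis to round spermatids, ran from 9.3 to 261.3 CPM, with its highest values in Low-VCR 1, 3 and 2. M1ap and Syce2, which act in meiotic recombination and the synaptonemal complex, had within-group slopes of 0.51 ± 0.089 and 0.42 ± 0.078 (edgeR adjusted p = 0.0033 and 0.0044), and without VCR 1 of 0.29 and 0.25 (0.402 and 0.43). By exact permutation inside groups, adjusted over the named genes, the r of M1ap had p = 0.0421 and that of Syce2 0.0508. Both genes were named for their small p within groups in the same libraries, so these p-values are not separate support.

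Piwil1 and Dmc1 showed how unevenly the meiotic markers lay along the order. Piwil1, the PIWI protein of pachytene piRNAs, was at 30 CPM in VCR 1 and 174.9 in VCR 2, at 765.7 in VCR 3 and 862.2 in High-VCR 2, and at 190.1 and 144.8 in Low-VCR 1 and 3. Low-VCR 2 and 4 had 434.7 and 545.5, and untreated libraries 515.3 to 618.4, so 2 treated libraries of middle score lay above that range. Dmc1, the meiotic recombinase, was at 29.6 and 27.5 CPM in Low-VCR 1 and 3, above the untreated 9.33 to 16.1, and at 3.11 to 15.7 in the other treated libraries. Piwil1 had a slope of 0.77 ± 0.23 over 12 libraries (edgeR adjusted p = 0.0207) and 0.15 ± 0.62 over 10 (0.973). Dmc1 did not pass in either (0.28 ± 0.28, edgeR adjusted p = 0.415; -0.58 ± 0.92, 0.921).

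Spermatogonial genes had no common relation to the score. Among differentiating spermatogonia genes 2 of 15 were higher and 2 lower at a higher score, and among undifferentiated ones 1 and 2 of 13, against 21.8% higher and 17.6% lower over all genes. Neither list had a called member without VCR 1, where 4.07% of all genes were called higher and 1.63% lower. Kit, the receptor of differentiating spermatogonia and also a Leydig cell gene, was lowest in Low-VCR 2 at 26.5 CPM and highest in High-VCR 4 at 142, with VCR 1 at 133.8, against 9.4 to 14.2 in untreated libraries, with a slope of -0.24 ± 0.12 that did not pass (edgeR adjusted p = 0.113). Ddx4, the germ cell RNA helicase, was at 54.7 CPM in VCR 1, 173.8 in VCR 2 and 198.7 to 603 elsewhere, against 598 to 705.4 in untreated libraries (slope within groups 0.69 ± 0.15, edgeR adjusted p = 0.0132; 0.19 in the 10 libraries, 0.938). Lhx1, a transcription factor listed for undifferentiated cells, had 0 CPM in VCR 1, 0.09 in VCR 2 and 1.23 to 3.07 elsewhere. Its slope was 1.45 ± 0.29 within groups (edgeR adjusted p = 0.0072) and 0.54 in the 10 libraries (0.64). Within groups it was the 1 called member of 13, but its r there did not pass by exact permutation inside groups (p = 0.0557, adjusted 0.07).

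Spindle and checkpoint genes were lower in the low-score libraries. Of 23 tested, 16 passed over 12 libraries (median slope 0.33), all higher at a higher score, against 21.8% of all genes, and 0 without VCR 1 (935 of 16394 genes passed in that edgeR fit). Prc1, which bundles the central spindle, was at 4.04 CPM in VCR 1, 12.6 in VCR 2 and 12.3 to 48.1 elsewhere, with the highest value in High-VCR 2 (slope within groups 0.70 ± 0.16, edgeR adjusted p = 0.0161; -0.09 in the 10 libraries, 0.978). Bub1b, a checkpoint kinase, was at 28.2, 58.1 and 61.9 to 186.6 CPM (0.57 ± 0.14, edgeR adjusted p = 0.0249; 0.10 in the 10 libraries, 0.973). The tubulins divided, with 6 of 15 higher and 5 lower at a higher score, against 21.8% and 17.6% of all genes. In the 10 libraries 0 passed in either direction, against 1.18% and 0.0481% of all genes. Tuba8 was at 8.64 CPM in VCR 1, 120.7 in VCR 2 and 114.7 to 371.2 elsewhere (0.92 ± 0.14, edgeR adjusted p = 0.0014; 0.40 without VCR 1, 0.337). Tuba4a had a slope of 0.28 ± 0.057 within groups (edgeR adjusted p = 0.008; 0.31 without VCR 1, 0.333). The tubulins are near-identical genes, and the sources used here do not say how shared reads were divided.

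The genes most closely ranked with the score included several outside the lists. By the rank correlation over 12 libraries, among genes of at least 10 CPM on average, the first 4 were Cntnap5b, Skp2, Spem1 and Car2. Cntnap5b, a contactin-associated protein gene, was at 0.75 CPM in VCR 1, 6 in VCR 2 and 12 to 35.3 in the others (rho = 0.99 and r = 0.99; r = 0.98 in the 10 libraries). Skp2, a substrate receptor of a ubiquitin ligase, was at 10.1, 33.7 and 53.6 to 138.7 CPM (rho and r 0.99; r = 0.98 in the 10). Spem1, needed for sperm head and tail shape and a member of the elongating list, and Car2, carbonic anhydrase 2, had rho = 0.99 and r = 0.98, with r = 0.94 in the 10 libraries. All 4 were chosen for this correlation out of all genes tested, so it is a description with no test, as are their slopes of 1.26, 1.01, 1.14 and 1.15 in the 10 libraries.

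Among genes called both over the treated libraries and within groups, the steepest slopes belonged to genes with almost no counts in VCR 1. Ccdc159, a coiled-coil gene also named in the series title, was at 0 CPM in VCR 1, 0.09 in VCR 2, 15.3 in VCR 3 and 6.55 in VCR 4. It was at 19.3 to 38.6 in Low-VCR and 5.24 to 26.3 in High-VCR, against 15.5 to 44.8 in untreated libraries. The Low-VCR values all lay inside the untreated range, while VCR 1 and VCR 2 were under 3 counts, the limit that a count of 0 allows (0.282 and 0.261 CPM). Its slope was 2.33 ± 0.29 over 12 libraries and 2.16 ± 0.31 within groups (edgeR adjusted p = 7.1e-05 and 0.00096), and 1.70 ± 0.41 in the 10 libraries (0.0933). By exact permutation inside groups, its r within groups of 0.81 had p = 0.0408, adjusted 0.0565 over the named genes. Mical3, a monooxygenase acting on actin, was at 0 CPM in VCR 1, 54.9 in VCR 2 and 108.1 to 341.9 elsewhere, and passed in the 10 libraries (1.17 ± 0.15, edgeR adjusted p = 0.0059). Neurl1a, a ubiquitin ligase, was at 0.09, 0.26 and 11.9 to 47.7 CPM. Vit, Fam13c and Tmem40 were at 0 in VCR 1 and at most 1.56 in VCR 2, and did not pass without VCR 1.

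**Figure D4:**
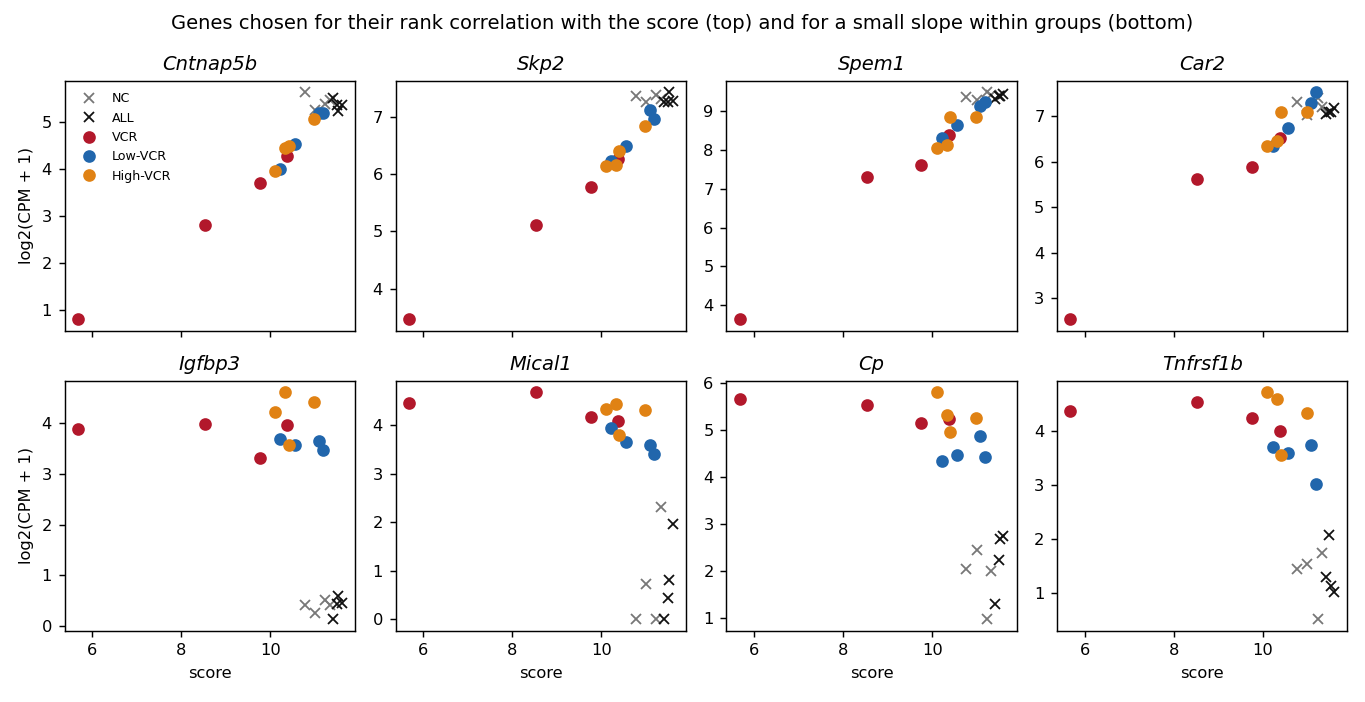
Log2(CPM + 1) of single genes against the score, treated libraries as circles and untreated as crosses. The genes of the top panels rise with the score, and those of the bottom panels, chosen for a small slope within groups, lie above the untreated libraries in each treated one.

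Somatic transcripts ran the other way with small slopes. Cyp11a1, the side-chain cleavage enzyme that starts steroid synthesis in Leydig cells, was at 4900 CPM in VCR 1 and 3615 in VCR 2, 1680 in VCR 3 and 2653 in VCR 4. It was at 831.9 to 1346 in Low-VCR and 1156 to 2856 in High-VCR, against 109.3 to 262.7 in untreated libraries. Its slope was -0.41 ± 0.075 over 12 libraries and -1.04 ± 0.22 over 10 (edgeR adjusted p = 0.0019 and 0.0468), and -0.30 ± 0.088 within groups (0.0424). All treated libraries lay above all untreated ones, and the lowest treated values came from Low-VCR 2 and 4.

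Counts by list showed the same direction over 12 libraries. Lower at a higher score were 10 of 14 Leydig genes, 16 of 20 extracellular matrix genes, 16 of 23 interferon-stimulated genes, 12 of 22 cholesterol synthesis genes, 8 of 18 macrophage genes and 9 of 24 Sertoli genes, against 17.6% of all genes. Their median slopes were -0.24, -0.22, -0.23, -0.19, -0.23 and -0.12. Without VCR 1 the counts were 5, 7, 0, 11, 2 and 0, against 1.63% of all genes. Without VCR 1 and VCR 2 they were 1 in the Leydig list and 0 in the others, against 0.0481% of all genes. Col18a1, a basement membrane collagen, was at 430.5 CPM in VCR 1, 282.2 in VCR 2 and 110.3 to 250.8 elsewhere (slope within groups -0.25 ± 0.06, edgeR adjusted p = 0.0198; -0.54 in the 10 libraries, 0.334). Ccng1, a p53 target, was at 84.1, 55.7 and 26.5 to 60.9 CPM (-0.21 ± 0.061, 0.0458; -0.44 in the 10 libraries, 0.636), and 10 of 20 p53 targets were lower at a higher score. Plin1, a lipid droplet protein of adipocytes and Leydig cells, was at 7.52 CPM in VCR 1 and 2.08 in Low-VCR 2 (-0.26 ± 0.072, 0.0335). In the 10 libraries its slope was -0.52 and did not pass (edgeR adjusted p = 0.491). The adipocyte marker Adipoq, given further below, ran the other way over 12 libraries.

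This direction depended on the scaling. When libraries were scaled to the 24 Sertoli genes, the median slope of all genes moved from -0.01 to 0.13, and 4238 genes passed higher and 156 lower (edgeR), against 3534 and 2842. The Leydig list then had 3 of 14 members called lower at a higher score and the matrix list 2 of 20. The interferon list had 1 of 23, the cholesterol list 1 of 22 and the macrophage list 0 of 18. Of all genes tested, 156 of 16189 were called lower under that scaling, so the calls fell for genes at large too. The elongating list kept 27 higher of 28, against 4238 of 16189. With the library total alone the split was 3299 and 3858, with upper-quartile scaling 3184 and 5543. Relative to Sertoli transcripts, Cyp11a1 had -0.26 over 12 libraries (edgeR adjusted p = 0.0179) and -0.17 within groups (0.233). Col18a1 had -0.13 (edgeR adjusted p = 0.048) and -0.12 (0.262), Ccng1 -0.10 (0.12) and -0.08 (0.406), and Plin1 -0.13 (0.0739) and -0.14 (0.27). No p53 target was called lower at a higher score under that scaling.

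**Figure D5:**
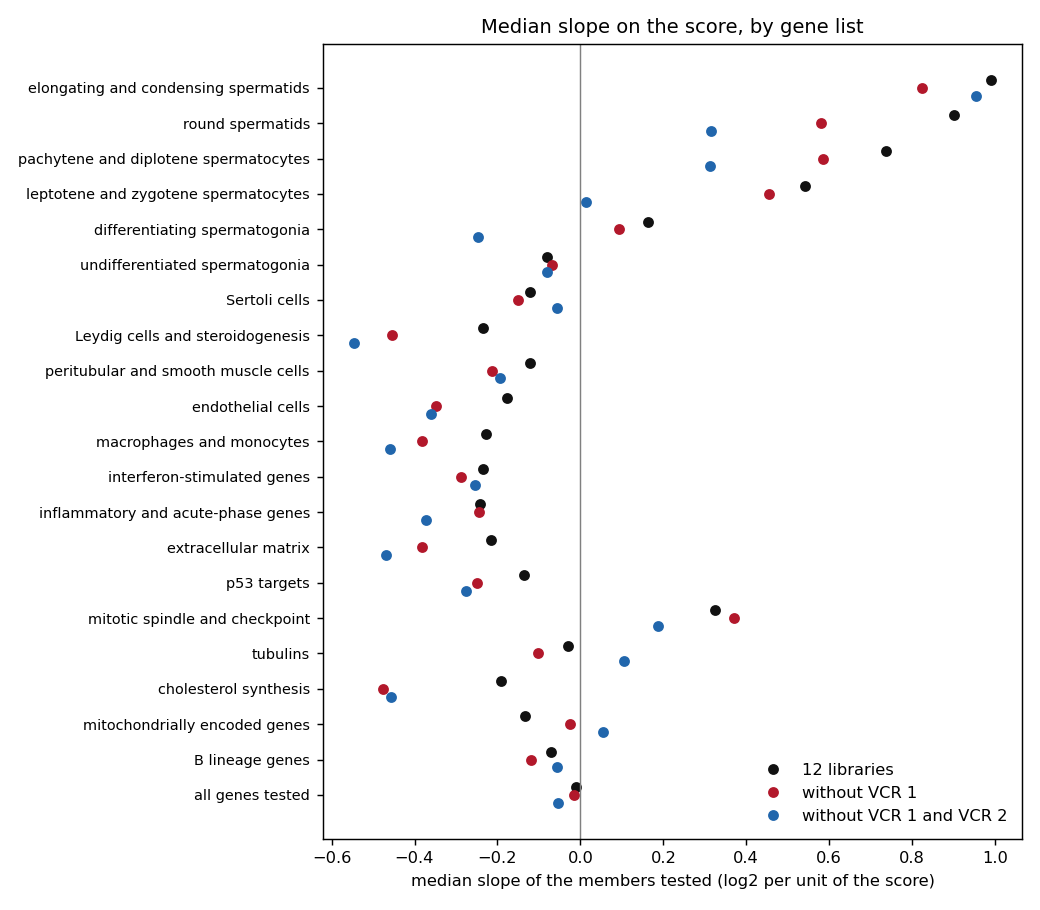
Median slope on the score (log2 per unit) of the tested members of each list, over 12 libraries, without VCR 1, and without VCR 1 and VCR 2. The elongating list stays near 1 (0.99, 0.82 and 0.96), the round list drops from 0.90 to 0.32, and most somatic lists lie below 0.

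The 6 steepest genes called in that direction in both fits followed no single list. Sema3d, a secreted guidance factor, was at 5.64 CPM in VCR 1, 1.91 in VCR 2 and 0.31 to 2.22 elsewhere, with at most 0.10 in untreated libraries (slope within groups -0.56 ± 0.14, edgeR adjusted p = 0.0201). Acot1, an acyl-CoA thioesterase, was at 37.4, 25.2 and 2.78 to 13.1 CPM (-0.49 ± 0.14, 0.0427). Fads3, a member of the fatty acid desaturase family, had -0.42 ± 0.097 (0.0166) and, like Acot1 (-1.02, 0.0083), passed over 11 libraries without VCR 1 (-0.75, 0.0035). Myh6 and A2m, a cardiac myosin and a protease inhibitor, were at 32.1 and 18.3 CPM in VCR 1 and had -0.47 and -0.43 within groups, and Frmd5 had -0.50. None of these 6 passed in the 10 libraries.

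Some members did not move with their lists. Actg2, a smooth muscle actin, was at 9.11 CPM in VCR 1, 36.5 in VCR 2 and 45.3 to 119.3 elsewhere, against 155.6 to 192.1 in untreated libraries (slope within groups 0.62 ± 0.06, edgeR adjusted p = 6.1e-05; 0.91 in the 10 libraries, 0.0606), while 7 of its 12 list members were lower at a higher score. Aif1, a macrophage marker, was at 10.7, 19.7 and 27.3 to 72.6 CPM, against 77.7 to 100.2 untreated (0.41 ± 0.052, edgeR adjusted p = 0.00036; 0.95 in the 10 libraries, 0.0789), while 8 of 18 macrophage genes were lower. Cst8, a cystatin listed for the epididymis, was at 15.2, 30.2 and 30.8 to 75.7 CPM (0.33 ± 0.049, edgeR adjusted p = 0.0011). Of the defining epididymal markers, Lcn5 was at most 0.285 CPM and Defb20 at most 0.462 in treated libraries. The third, Rnase10, was at 0 CPM in VCR 1, 1.74 in VCR 2 and up to 4.98 in High-VCR 2, against 4.67 to 7.23 in untreated libraries. The list counts set beside Actg2 and Aif1 are over 12 libraries, where 17.6% of all genes were called lower. Within groups 0 members of these 2 lists were called lower. Whether other cell types take part in the values of Actg2, Aif1 and Cst8 was not tested.

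A further set of genes differed strongly between treated and untreated libraries and had small slopes on the score within groups. The set held 3351 genes with a within-group slope whose 95% interval lay inside -0.25 to 0.25. Only genes that passed for treated against untreated libraries and had at least 10 CPM on average in treated ones were counted. Provisional symbols were left out, so this number is not a share of all genes tested. Of the 16530 genes tested for treated against untreated libraries, 13834 (83.7%) passed, 45.2% higher and 38.5% lower in treated ones. Igfbp3, a binding protein of insulin-like growth factors, was at 13.7, 14.8, 14.7 and 8.94 CPM in VCR 1 to 4, at 10.2 to 12 in Low-VCR and at 10.8 to 23.4 in High-VCR, against 0.10 to 0.51 in untreated libraries. No treated library overlapped the untreated ones, and VCR 1 lay in the middle of the treated range (slope within groups 0.0049 ± 0.08, 95% interval -0.17 to 0.18). Mical1, Cp, Tnfrsf1b, Tgfbi and Clip3 had slopes between -0.09 and -0.02. Their ranks were not level along the order, with rho over 12 libraries of -0.80 for Mical1, -0.74 for Clip3, -0.64 for Tnfrsf1b, -0.61 for Cp and -0.45 for Tgfbi, and -0.22 for Igfbp3. Without VCR 1 the slopes within groups of Mical1, Tnfrsf1b and Tgfbi were -0.28, -0.28 and -0.30, outside the bound. Tgfbi, a matrix protein, was at 86.5 to 241.9 CPM in treated and 16.9 to 21.6 in untreated libraries, and Cp, the copper oxidase ceruloplasmin, at 19.1 to 54.6 and 0.95 to 5.65. Under Sertoli scaling each of these 5 had a positive slope, between 0.03 and 0.10.

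Within groups the relation was narrower and, in the main fit, mostly in 1 direction. With group means in the fit, 2335 of 16189 genes passed in edgeR (14.4%), 2159 (13.3%) higher and 176 (1.09%) lower at a higher score, and 2129 of the 2159 were also called higher over 12 libraries. Without VCR 1 the count was 114 (0.695%), with 0.665% of genes higher and 0.0305% lower, and without VCR 3 it was 931. Without High-VCR 2 it was 5620, with 3597 higher and 2023 lower, so the balance of directions depended on that library. Without VCR 1 and VCR 2 no gene passed in edgeR (987 at an unadjusted p under 0.05), and with ranks of the score none did (3046). The elongating list had 26 of 28 called, the round 18 of 28, the pachytene 19 of 26 and the leptotene 17 of 29. Upper-quartile scaling gave 2232 higher and 1436 lower. Of the 2159 genes called higher, 1299 had a positive slope in each of the 3 groups taken alone, and of the 176 called lower, 138 had a negative one; over all genes tested, 15.1% had 3 positive and 25.6% 3 negative slopes.

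No gene passed a test of different slopes between VCR, Low-VCR and High-VCR, or the joint test of a group difference at equal score. For slopes, edgeR called 0 of 16189 (1254 at an unadjusted p under 0.05, smallest adjusted p 0.419), and without High-VCR 2 it called 53. For groups at equal score it called 0 (2467, smallest adjusted p 0.105), but 2755 without High-VCR 2 and 311 without Low-VCR 4. No other tool was run for these tests, and a miss does not show that the groups act alike. The smallest p for groups belonged to Btbd35f15, of a multi-copy family whose reads may be shared. It was at 0 CPM in VCR 1, 3 and 4, 0.09 in VCR 2, 2.85 to 5.33 in Low-VCR and 1.61 to 2.63 in High-VCR (edgeR adjusted p = 0.105). It was also the 1 gene to pass for Low-VCR against VCR alone (edgeR adjusted p = 0.0257; 1586 genes at an unadjusted p under 0.05), and none passed for High-VCR against VCR (256) or High-VCR against Low-VCR (3643). Ica1, Zfp13 and Sgf29 followed with higher values in Low-VCR 1 and 3 than in any other treated library, Sgf29 at 207.4 and 227.9 CPM against 34.9 to 183.6. Phc3 and Cited4 were the others, Cited4 at 5.3 to 10.2 CPM in High-VCR and 2.15 to 4.79 in the rest (edgeR adjusted p = 0.201 for each of these 5). For slopes the smallest p belonged to Scn1a, Igf2 and Tescl (edgeR adjusted p = 0.419, 0.436 and 0.436). Igf2, a growth factor, was at 5.16 and 5.27 CPM in Low-VCR 2 and 4 and at 10.7 to 30.4 elsewhere among treated libraries.

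In untreated libraries the score had no called followers. With NC and ALL as group means, edgeR called 0 of 15000 genes (1318 at an unadjusted p under 0.05), over a score range of 10.77 to 11.60. The elongating list had a median slope of 0.26 there, with 23 of 28 above 0, and the round list 0.17, with 25 of 28 above 0. The range is narrow and 8 libraries are few, so smaller slopes were not detectable.

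The CRE-like motif was more frequent before the genes that followed the score among the 10 libraries. Of 196 genes called higher there, 155 had a RefSeq promoter, and 41 of these (26.5%) held TGACNTCA within the 250 bases on either strand. The share was 13.1% of 1666 for genes called higher within groups, 8.20% of 12557 for all genes tested and 8.55% of 27025 for all genes with a promoter. Counted by promoter, the full CRE, TGACGTCA, which is included in that motif, was in 3.59% of 223 for the genes called among the 10 libraries, 2.21% of 2173 for those called within groups, 2.29% of 15833 for genes tested and 1.55% of all 32851. TATAAA was in 8.39%, 9.84%, 8.94% and 14.3% of the genes of the same 4 sets. A match is a description of letters in the window, not of a bound site.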

How the data were processed

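Poly(A)-selected RNA of 20 testis samples in 5 groups of 4 was measured. The authors deposited raw counts, as whole numbers, for 22066 gene symbols, of which 1207 had no count. The tools named, per the submitters' processing notes, were STAR 2.7.10b, Trimmomatic 0.39, DESeq2 1.36.0 and featureCounts (Subread 2.0.3), with the genome build GRCm39; roles, annotation and strand setting are not given in the sources used here. Genes that overlap or share reads therefore carry that uncertainty.

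The score was computed from the counts with a pseudocount of 1. Genes passing filterByExpr (by group, minimum count 10) were fitted in edgeR 4.0.16 (R 4.3.3; TMM, robust quasi-likelihood) with the score as covariate, over the 12 treated libraries alone or with group means, group-by-score terms, or over the 8 untreated libraries. The threshold for a call was 0.05 after Benjamini-Hochberg adjustment. Slopes are given ± SE. Correlations used 100000 permutations, and those within groups used all 13824 rearrangements inside groups. Treated and untreated libraries were compared in a fit of 5 group means. The fits over 12 libraries and within groups were also run on simulated counts with known slopes. These counts had a common spread, no group differences and no library deviating on its own. They therefore do not test how far VCR 1 carries the calls.

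The score genes, 24 gene lists (429 genes) and tests were chosen with earlier results of these data known. Named genes were Tssk4 and Ccdc159; the 6 steepest in each direction called in both fits (mean at least 1 CPM); the 2 best-called members of each list; the smallest p of the group (6) and slope (3) tests; 6 flat genes with the largest treated difference (at least 10 CPM); and the 4 highest rank correlations. Stage markers, and other members named as such, were named beside them. Gene models with provisional symbols were counted and not named. The result for 1 gene that this rule names is not reported here. Alternatives were other scalings (DESeq2 size factors, library total, upper quartile, Sertoli genes), filters, score definitions, ranks, blocks, limma 3.58.1 voom, DESeq2 1.42.0 and leaving out libraries. Replicate libraries differed beyond counting noise in each pair (chi-square per gene at least 3.78). At these depths (9425158 to 16357287 counts), 3 counts correspond to 0.183 to 0.318 CPM; such floors cover counting error only.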

Additional observations from a re-analysis of the deposited data

Results flagged for a closer look

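In 261 sets of 4 libraries, 9 held a library set apart from its 3 companions, 3.45%, while chance alone sets apart about 1 in 20. Each set held the values of 1 treated group for a library measure, a list mean, a score gene or a named gene. Lists and genes were on the log2(CPM + 1) scale. The mean of the Sertoli list in High-VCR 2 was 6.25, with the other High-VCR libraries at 6.86 to 6.99. The adipocyte list in VCR 2 was at 1.65, with 1.24 to 1.29 in the others, and the neutrophil list in High-VCR 3 at 0.65, with 0.79 to 0.80. Tuba8 in VCR 1 was at 3.27, against 6.93 to 7.60 in the other VCR libraries. Btbd35f15 in VCR 2 was at 0.12, with 0 in the other 3. In High-VCR 4 Phc3 was at 3.77, against 3.31 to 3.35. In High-VCR 3 Scn1a was at 1.38, against 1.11 to 1.15, and Tescl at 5.81, against 5.10 to 5.20. Igfbp3 in VCR 4 was at 3.31, against 3.88 to 3.98. Of the 9, 1 was in VCR 1, the library with the lowest score. The rule sets the gap to the nearest library against the range of the 4. A low value in VCR 2 therefore makes it harder for VCR 1 to be set apart, and the count does not show that VCR 1 was like its companions.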

How the results depend on the processing

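The relation over 12 libraries kept its order of size under other scalings and filters, and lost it mainly without the lowest libraries. The number of genes following the score was 3837 with ranks of the score, 2101 with the name range, 204 without the 2 farthest libraries and 0 without them under Sertoli scaling, a combination chosen after seeing the data. Within groups it was 3668 with upper-quartile scaling, 3663 with DESeq2, 0 with ranks, 0 without the 2 farthest libraries and 0 when Sertoli scaling was added. In untreated libraries it was 2 with no gene filter. Without the 2 farthest libraries r was 0.18 for total counts, 0.15 for genes detected, -0.044 for the mitochondrial share and -0.61 for the ribosomal share. It was 0.50 for the first component, which was kept as computed over 12 libraries. The cause was not tested.

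Replicate numbers did not pair the libraries: 4 of 12 same-numbered pairs correlated above 0.1 (-0.66 to 0.73), and 2 of 12 libraries correlated best with their own number. With the replicate block the counts were 2970 over 12 libraries and 706 within groups.

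Leaving out 1 library at a time gave 935 to 6934 genes over 12 libraries, 114 to 5620 within groups, 0 to 53 for different slopes, 0 to 2755 for groups at equal score and 0 to 3 in untreated libraries. Score differences ranged from 1.21 to 2.77 for Low-VCR minus VCR, 0.90 to 2.46 for High-VCR minus VCR and -0.49 to -0.17 for High-VCR minus Low-VCR. Correlations ranged from 0.48 to 0.73 for total counts, 0.43 to 0.87 for genes detected and -0.78 to -0.24 for the mitochondrial share. They were -0.93 to -0.73 for the ribosomal share. For the first component, kept as computed over 12 libraries, they were 0.70 to 0.92.

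Slopes within groups that changed sign belonged to genes with slopes near 0 or wide errors. Without the 2 farthest libraries, and then with Sertoli scaling, Tssk4 had -0.40 and -0.33, Zfp13 -0.18 and -0.18, Scn1a 2.16 and 2.30, and Cp 0.072 and 0.076. With Sertoli scaling alone Phc3 had 0.0075, Cited4 0.0195, Mical1 0.059, Cp 0.0598, Tnfrsf1b 0.071, Tgfbi 0.10 and Clip3 0.0302. With ranks Scn1a had 0.12. Igfbp3 had -0.0298 with library totals, -0.0663 with upper quartiles, -0.0036 with no filter, -0.0013 with a TMM-scaled score, -2.2e-05 with Prm1 and Prm2 only, -0.0503 with the replicate block, -2.4e-05 with the name range and -0.0026 with voom. Leaving out single libraries gave Igfbp3 -0.0771 to 0.0571, Scn1a -0.35 to 0.26, Tgfbi -0.295 to 0.0231 and Tssk4 -0.14 to 0.91. Counts limit genes under 1 CPM, and 12 libraries with 1 extreme score limit the rest.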

Other observations

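Blood and fat transcripts were also uneven along the order. Hba-a1, an alpha globin, was at 331.9 CPM in VCR 1, 316.3 in VCR 2 and 347.4 in High-VCR 4, and at 52 in Low-VCR 1 and 64.7 in High-VCR 2, against 16 to 40.7 in untreated libraries; its slope did not pass (-0.16 ± 0.13, edgeR adjusted p = 0.323). Adipoq, the adipocyte hormone, was at 0 CPM in VCR 1, at 15.6 and 16.8 in Low-VCR 1 and 3 and at 1.49 to 7.92 in the other treated libraries, against 12.4 to 25 in untreated ones (0.96 ± 0.33 over 12 libraries, edgeR adjusted p = 0.0353; 0.69 ± 0.89 over 10, 0.901). Insl3, a Leydig cell peptide, was at 5885 CPM in High-VCR 1, above the 4904 of VCR 1, and did not pass (-0.16 ± 0.10, edgeR adjusted p = 0.203).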
